A study of Mus musculus with 288 samples.

Results

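The cerebellum of mice kept in normoxia was compared between the daytime and the night-time part of the circadian cycle. The 24 cerebellum normoxia libraries, out of 288 libraries in the series, were split by their labelled hour into 12 of 1:30, 4:30, 7:30 and 10:30, called day, and 12 of 13:30, 16:30, 19:30 and 22:30, called night. Each time point held 3 libraries. Of 35904 genes in the table, the 10440 with a mean of at least 5 TPM (a length-normalised share of a library's transcripts) were tested.

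All mice were 8-week-old wild-type C57BL/6J males. The series set animals in normoxia against animals given intermittent hypoxia (IH, 21% to 8% oxygen) in the light phase over 7 days, and all were then moved to darkness in normoxia for 2 days before 6 organs were collected. Day and night are therefore subjective, and the labels give hours without naming them as circadian time. Nothing in the labels ties a library to one mouse, so p-values measure the spread between libraries.

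The circadian clock of a cell is a transcriptional loop. ARNTL and CLOCK bind E-boxes in the promoters of Per, Cry, Nr1d and Dbp genes, PER and CRY proteins shut that activation off, and the REV-ERB proteins encoded by Nr1d1 and Nr1d2 repress Arntl in turn. The cerebellum carries such a clock, which is known to have a lower amplitude than that of liver or kidney, and granule cells and Purkinje cells are its characteristic neurons. Promoter stretches of 5 clock genes that hold the letters of an E-box or its variant are shown first, as examples of such sequences.

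Promoter windows of 250 bases before the annotated start were taken from RefSeq on GRCm38.p6, and 17 of the 22 clock genes with enough expression had one. The E-box CACGTG, which reads the same on both strands, was present in 5 of the 17, against 10.2% of the 8118 tested genes with a window and 6.86% of all 27025 genes. Its variant CACGTT, searched on both strands, was present in 3 of the 17 and in 5.32% of tested genes. A match describes letters and is not shown to be a bound site. The Per1 stretch lies within the gene's span in GENCODE vM21 (69095217-69109960), so its window precedes a later annotated start. Capitals mark CACGTG, or CACGTT on either strand, and no matches overlapped in these windows.
Per1, chr11:69098758-69098813, plus strand: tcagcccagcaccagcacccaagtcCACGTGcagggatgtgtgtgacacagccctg
Cry1, chr10:85185084-85185158, minus strand: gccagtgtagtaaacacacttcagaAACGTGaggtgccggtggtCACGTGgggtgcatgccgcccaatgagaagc
Ciart, chr3:95882242-95882369, minus strand: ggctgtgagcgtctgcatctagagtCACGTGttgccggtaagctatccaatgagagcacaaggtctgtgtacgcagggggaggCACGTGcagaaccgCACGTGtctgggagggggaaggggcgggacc
Bhlhe41, chr6:145865543-145865598, minus strand: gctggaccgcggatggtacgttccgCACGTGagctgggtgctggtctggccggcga
Nr1d1, chr11:98775378-98775430, minus strand: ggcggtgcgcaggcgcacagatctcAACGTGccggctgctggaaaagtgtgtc

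Of the library measures, only the numbers of genes were tested between day and night. Genes of at least 1 TPM were fewer at night (permutation p = 0.0015), while genes above 0 TPM did not pass (permutation p = 0.224). Summed markers are given as ranges and were not tested. Genes with at least 1 TPM numbered from 14021 to 18478 in day libraries and from 13364 to 14855 in night libraries, and 7:30 replicates 1 and 2 had the most. Summed granule cell markers ran from 851 to 3233 TPM by day and from 922 to 2541 TPM by night, and summed Purkinje cell markers from 3859 to 10600 TPM and from 6149 to 11710 TPM. Both sets of defining markers of the cerebellum were thus present in every library, and forebrain markers summed to at most 14.1 TPM. One night library, 19:30 replicate 3, held 14990 TPM of skeletal muscle transcripts, and 16:30 replicate 3 held 6366 TPM of pituitary hormone transcripts. The highest Purkinje cell sum, 11710 TPM, and the lowest night granule cell sum, 922 TPM, were both in 19:30 replicate 3. Whether its muscle transcripts add to that Purkinje cell sum was not tested. Choroid plexus markers ran from 142.5 to 6701 TPM, brainstem markers from 12.4 to 148 TPM, and blood markers from 7011 to 27840 TPM. The transcript Gm19220 alone took between 25795 and 240787 TPM of a library. In bulk tissue, fewer cells of a type and less RNA per cell cannot be told apart.

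**Figure D1:**
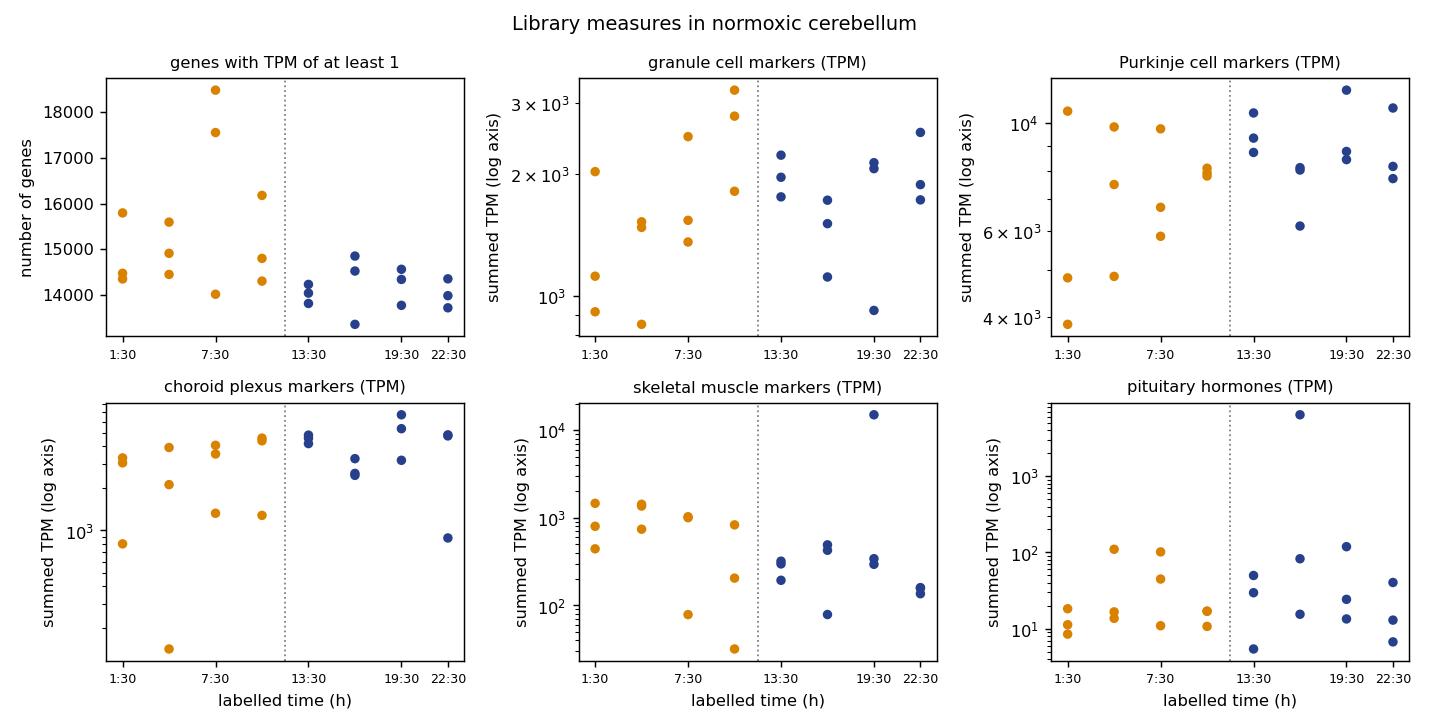
Library measures against labelled time (hours) in the 24 cerebellum normoxia libraries, 1 point per library, orange for day and blue for night, with a dotted line between day and night. The upper left panel counts genes of at least 1 TPM on a linear axis and the others show summed marker TPM on log axes. Single night libraries stand out at 14990 TPM for skeletal muscle and at 6366 TPM for pituitary hormones.

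Between night and day, 265 of the 10440 genes passed limma's moderated test at a Benjamini-Hochberg adjusted p of 0.05, which is 2.54% of genes tested. Of these, 142 were higher (1.36%) and 123 lower (1.18%) at night, and 104 differed by at least 1.5-fold, which is 0.996% of genes tested. At an unadjusted p of 0.05, 1955 genes (18.7%) differed, and 48.2% of all genes had a positive difference. No gene had every night library above, or every night library below, every day library after scaling. On the values as deposited, without scaling between libraries, 213 genes passed, of which 29 were higher and 184 lower at night, so the near-even split rests on the scaling.

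The number of calls was not stable to the choice of libraries. Leaving out replicate 1 or replicate 2 at all time points left 0 calls by limma, with 765 and 1273 genes at an unadjusted p of 0.05. Leaving out replicate 3 gave 1272 calls. Without the 22:30 libraries 0 genes passed, with 1298 at an unadjusted p of 0.05, and without those of 16:30 or 13:30 the number was 3 and 22. Without 4:30 it was 127, without 19:30 it was 126 and without 10:30 it was 598. Without the libraries rich in pituitary or muscle transcripts 410 genes passed, and without the 7:30 libraries of replicates 1 and 2 it was 70. In each of these fits all 265 genes kept their direction. They were called on mostly the same libraries, so a kept direction does not measure stability.

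Among the genes higher at night, Npy, the gene of neuropeptide Y, ranged from 21.8 through a median of 37.3 to 60.3 TPM by day and from 38.7 through 54.2 to 69.7 TPM by night. The ranges overlapped, and the log2 difference of night minus day was 0.53 ± 0.09 (SE, limma adjusted p = 0.0109, n = 12 and 12). Gng5, a G-protein gamma subunit, was at a median of 51.6 TPM by day, between 33.5 and 97.6, and at 99.6 TPM by night, between 57.3 and 130.3. Its log2 difference was 0.86 ± 0.16. Both its lowest and its highest night value were in 13:30 libraries.

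Usp10, a deubiquitinase, rose by 0.51 ± 0.09 on the log2 scale, Tra2a, a splicing regulator, by 0.45 ± 0.08, and Atp6v0e, a subunit of the vacuolar proton pump, by 0.66 ± 0.12. Pigf, which acts in the assembly of glycosylphosphatidylinositol anchors, rose by 0.63 ± 0.11. Cox6b2, a cytochrome c oxidase subunit, rose by 0.64 ± 0.12 and Snapc3, part of the complex that activates small nuclear RNA genes, by 0.62 ± 0.12. Marchf11, a membrane ubiquitin ligase, rose by 0.44 ± 0.08, Pagr1a by 0.93 ± 0.18, and Ramp2, an accessory protein of the adrenomedullin receptor, by 0.41 ± 0.08. With Npy, Gng5 and Manf these were the 12 called genes with the smallest p in this direction.

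Among the genes lower at night, Tfrc, the transferrin receptor through which cells take up iron, was at 27.6, 38.1 and 53.5 TPM by day (lowest, median, highest) and at 19.0, 27.3 and 36.6 TPM by night. Its log2 difference was -0.47 ± 0.09 (limma adjusted p = 0.0109). Letm1, a cation exchanger of the inner mitochondrial membrane, differed by -0.38 ± 0.07, and Hadha, an enzyme of mitochondrial fatty acid oxidation, by -0.53 ± 0.11. Ankrd39, with the smallest p of all genes, lay between 10.9 and 34.3 TPM by day and between 8.93 and 15.1 TPM by night, a difference of -0.85 ± 0.13. A single day library, 1:30 replicate 2, lay inside the night range of Ankrd39.

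Other genes had low levels and a wide spread by day. Reep6, which shapes the endoplasmic reticulum, was at 8.24, 16.4 and 57.5 TPM by day and at 4.53, 5.64 and 12.6 TPM by night, with a log2 difference of -1.59 ± 0.31. Its 4 highest values, from 34.2 TPM up, were in 1:30 replicate 1, 4:30 replicates 1 and 3 and 7:30 replicate 1. Those libraries summed to between 1029 and 1464 TPM over the skeletal muscle list and held between 14915 and 18478 genes of at least 1 TPM. Members of that list differed. At 1:30, 4:30 and 7:30 the scaled means were 710, 1136 and 522 TPM for Mb, but 30.7, 2.57 and 20.5 TPM for Tnni2. At 19:30 they were 392 TPM for Mb and 1537 TPM for Tnni2. The sum alone thus does not show muscle tissue in the day libraries. The part of this sum or of the number of genes in the result was not tested. Hinfp, a regulator of histone H4 genes, had a median of 10.7 TPM by day and 4.77 TPM by night and differed by -1.15 ± 0.21, with its 4 highest values in the same 4 libraries. Pde4d, which degrades cyclic AMP, differed by -1.17 ± 0.22, Srcap, a chromatin remodeller, by -0.89 ± 0.18 and Huwe1, a ubiquitin ligase, by -0.79 ± 0.16. Smaller differences were seen for Trub2, a pseudouridine synthase, at -0.40 ± 0.07, for Hsdl1 at -0.49 ± 0.10 and for Gpc1, a cell surface proteoglycan, at -0.46 ± 0.09. With a term for the summed granule cell markers, added after the data were seen, 637 genes passed, among them all 265.

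**Figure D2:**
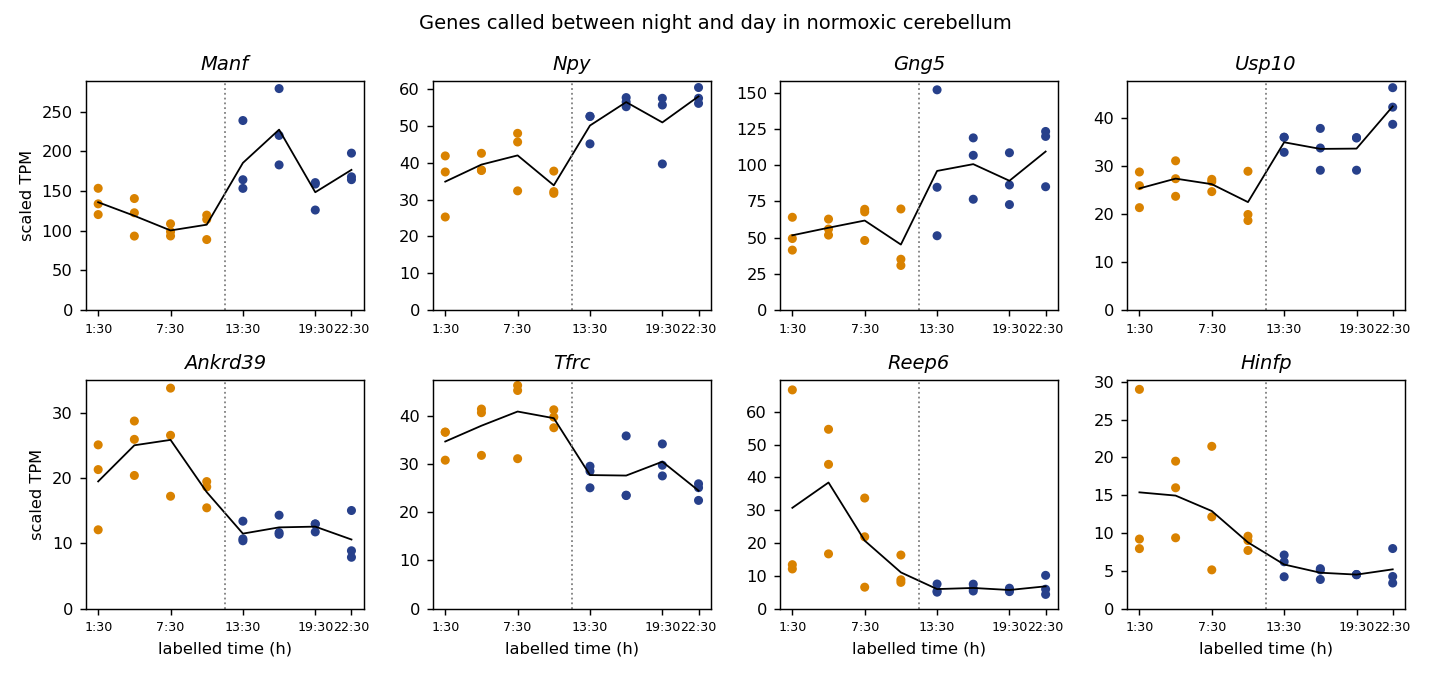
Scaled TPM (deposited TPM divided by the library's size factor) against labelled time in hours for 4 genes called higher and 4 called lower at night, 1 point per library, orange for day and blue for night, with a line through the mean of each time point. Manf, Npy, Gng5 and Usp10 lie higher right of the dotted line, and Ankrd39, Tfrc, Reep6 and Hinfp lie lower, with the day libraries of Reep6 and Hinfp spread most widely.

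Transcript length and level went with the direction of the calls. In GENCODE vM21 (GRCm38), the longest transcript of the genes higher at night had a median of 2018 bases, that of the genes lower at night 4313 bases, and that of all tested genes 3222 bases. Their median levels were 34.45 TPM, 12.35 TPM and 20.2 TPM. Their part in the result was not tested. Length was known for at least 98.9% of each set.

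Of 15 measured genes of the endoplasmic reticulum folding machinery, 2 rose at night (13.3%, against 2.54% of all genes called) and none fell, and 13 had a positive difference, with a median of 0.16 on the log2 scale against -0.01 over all genes. Manf, a secreted factor induced when folding capacity is exceeded, was at 81.0, 124 and 148 TPM by day and at 101, 178 and 261 TPM by night (lowest, median, highest), a log2 difference of 0.66 ± 0.12. Sdf2l1, a lumenal cofactor of the chaperone Hspa5, was at 17.5, 20.7 and 27.8 TPM by day and at 24.7, 32.0 and 50.2 TPM by night, a difference of 0.59 ± 0.13 (limma adjusted p = 0.0232). Xbp1, the transcription factor of this response, differed by 0.33 ± 0.11 and Hspa5 by 0.29 ± 0.12, and neither passed (limma adjusted p = 0.107 and 0.203). Manf lies on chromosome 9 at 106838312-106891979. Without the 7:30 libraries of replicates 1 and 2, 1 member passed, and without the libraries rich in pituitary or muscle transcripts 3 did. On the values as deposited 2 passed.

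The endoplasmic reticulum stress element (ERSE), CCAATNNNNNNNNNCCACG on either strand, is the site through which chaperone genes of this compartment are induced. It was found in 7 of the 13 members with a promoter window, against 0.148% of tested genes and 0 of the 110 genes called higher at night that had a window. The members that passed were Manf, which had no window, and Sdf2l1, in whose window these letters were not found. The window of Hspa5 is printed to show the element, with its letters in capitals.
Hspa5, chr2:34772000-34772068, plus strand: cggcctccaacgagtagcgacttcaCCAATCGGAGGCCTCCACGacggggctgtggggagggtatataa

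The cold-inducible RNA-binding protein gene Cirbp was lower at night. Its values were 70.4, 136.5 and 184 TPM by day and 49.2, 81.5 and 130 TPM by night, a log2 difference of -0.61 ± 0.13 (limma adjusted p = 0.0181). The ranges overlapped, and the scaled means of the day time points lay between 112.5 TPM at 4:30 and 134 TPM at 7:30. Rbm3, the other gene of this list, differed by -0.28 ± 0.17 and did not pass (adjusted p = 0.391). Cirbp lies on chromosome 10 at 80165985-80172786. The list had 1 call also without the 7:30 libraries of replicates 1 and 2 and on the values as deposited.

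Of 18 heat shock chaperone genes measured, 1 rose (5.56%, against 2.54% of all genes called) and none fell, with a median difference of 0.07. It was Dnajb1, a co-chaperone of HSP70, at 0.49 ± 0.12 (limma adjusted p = 0.0282), while Hspa8 differed by 0.36 ± 0.11 without passing (adjusted p = 0.0709). Without the 7:30 libraries of replicates 1 and 2 none passed, nor did any on the values as deposited. Of 12 glucocorticoid receptor targets, 2 rose (16.7%, against the same 2.54%) and none fell. Mt2, a metallothionein, spread from 161 to 1416 TPM by day and from 704 to 1722 TPM by night, a difference of 0.82 ± 0.22, and Cdkn1a, a cell cycle inhibitor, rose by 0.29 ± 0.08. Fkbp5, a target often used as a readout of the receptor, differed by -0.33 ± 0.20 and did not pass (adjusted p = 0.382). Without the 7:30 libraries of replicates 1 and 2, neither Mt2 nor Cdkn1a passed, and Cdkn1a did not pass without the libraries rich in pituitary or muscle transcripts either. On the values as deposited, neither Mt2 nor Cdkn1a passed.

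None of 14 immediate early genes passed by limma, and 3 of them reached an unadjusted p of 0.05, as did 18.7% of all genes. None of 22 genes of sterol synthesis and uptake passed, with 3 at an unadjusted p of 0.05, 6 of 22 differences above 0 (48.2% over all genes) and a median of -0.15 (-0.01 over all genes). Stard4, a sterol carrier, differed by -0.37 ± 0.10 (limma adjusted p = 0.0545). Of 15 SR protein and CLK kinase genes, Srsf9 rose by 0.23 ± 0.06, which failed without the 7:30 libraries of replicates 1 and 2 and on the values as deposited. None of 10 GABA-A and 13 glutamate receptor subunits passed, with 1 and 0 at an unadjusted p of 0.05. Gabra6, the subunit that defines granule cells, differed by 0.46 ± 0.18 (adjusted p = 0.172).

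Markers of cell types passed in few cases. Of 8 Purkinje cell genes 2 rose at night, Pcp4 by 0.67 ± 0.14 and Pcp2 by 0.69 ± 0.18 (25% of the list, against 2.54% of all genes called), none fell, and the median was 0.27. Without the 7:30 libraries of replicates 1 and 2, 1 of them passed, and on the values as deposited 1 did. No call was made by limma among 10 granule cell, 4 inhibitory interneuron, 10 astrocyte and Bergmann glia, 10 oligodendrocyte and 9 microglia genes, with 2, 1, 1, 1 and 3 at an unadjusted p of 0.05 (18.7% of all genes). Their medians were 0.09, 0.08, 0.04, 0.03 and -0.08.

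Of 8 endothelial genes, 4 reached an unadjusted p of 0.05 (18.7% of all genes), with both signs. Ly6c1, a surface protein, rose by 0.39 ± 0.08 and was the only call, which was lost on the values as deposited. Slc2a1 differed by 0.24 ± 0.09, while Pecam1 and Flt1 went the other way, by -0.82 ± 0.27 and -0.35 ± 0.14. The median of the list was -0.06, and its summed level ran from 314 to 413 TPM by day and from 293 to 414 TPM by night. Of 8 meningeal genes, 4 reached an unadjusted p of 0.05, again with both signs, and the list median was -0.23. Igf2, a growth factor also made by the choroid plexus, rose by 0.79 ± 0.18 and was the only call, which was lost on the values as deposited. Slc6a13 differed by 0.34 ± 0.12, while the collagen genes Col1a1 and Col3a1 went the other way, by -0.84 ± 0.28 and -0.78 ± 0.31. Igf2 did not pass without the 7:30 libraries of replicates 1 and 2. Choroid plexus genes had a median of 0.34 over 8 members, with none called and 2 at an unadjusted p of 0.05. Their summed level ran from 142.5 to 4568 TPM by day and from 884 to 6701 TPM by night, and its part in the value of Igf2 was not tested. Ttr, the transthyretin gene that marks this tissue, differed by 1.04 ± 0.55 (limma adjusted p = 0.313). The members at an unadjusted p of 0.05 had opposite signs, with Aqp1, a water channel, at -1.10 ± 0.41 and Kcnj13, a potassium channel, at 0.69 ± 0.30. None of 3 brainstem, 5 blood, 10 skeletal muscle and 4 pituitary genes passed by limma, with 0 at an unadjusted p of 0.05.

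Among the 22 clock genes, 1 was called between night and day, which is 4.55% against 2.54% of all genes. The median difference of the list was -0.05, and 8 of 22 lay above 0. Bhlhe41, the E-box repressor DEC2, was the called gene, at 9.92, 13.4 and 27.5 TPM by day and 9.55, 11.4 and 15.5 TPM by night, a log2 difference of -0.31 ± 0.08 (limma adjusted p = 0.0465). It passed in only 9 of 23 alternative settings. Those it failed in included the values as deposited and the fit without the 7:30 libraries of replicates 1 and 2. Its paralogue Bhlhe40 differed by -0.09 ± 0.09.

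In the positive arm, Arntl, the partner of CLOCK, was at 5.15, 7.76 and 15.3 TPM by day and 5.97, 9.94 and 19.4 TPM by night, a difference of 0.23 ± 0.12 (limma adjusted p = 0.274). On the scaled values it was lowest at 4:30, at a mean of 7.59 TPM, and highest at 22:30, at 13.6 TPM. Clock differed by 0.03 ± 0.11. Npas2, the paralogue of Clock, was between 0.429 and 2.52 TPM and was not tested.

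Per and Cry genes, the repressors of the loop, did not pass. Per1 was at a scaled mean of 5.19 TPM at 1:30 and 12.7 TPM at 13:30, and its night-day difference was 0.12 ± 0.22. Per3 differed by -0.17 ± 0.15. Cry1 lay 0.26 ± 0.10 higher at night (limma adjusted p = 0.146), from 14.8 TPM at 1:30 to 23.2 TPM at 13:30 on the scaled values, and Cry2 differed by -0.10 ± 0.14. Ciart, a repressor with the same E-box control, differed by 0.05 ± 0.16. Per2, between 1.52 and 10.0 TPM, was below the filter.

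Nr1d1, a REV-ERB gene, had its highest scaled mean at 10:30, at 37.4 TPM, and its lowest at 19:30, at 22.6 TPM. Its paralogue Nr1d2 was at 66.1 TPM at 10:30 and at 42.6 TPM at 4:30. Dbp, which binds D-boxes, was at 130.3 TPM at 7:30 and at 65.4 TPM at 22:30, with a difference of -0.39 ± 0.15 (limma adjusted p = 0.149). Tef, of the same proline and acidic rich family, ranged from 58.4 TPM at 1:30 to 126.5 TPM at 10:30 and Hlf from 11.8 TPM to 20.45 TPM at the same times. Nfil3, which competes with these factors, was higher at night by 0.28 ± 0.09 without passing (adjusted p = 0.105). Rora, which activates Arntl, differed by -0.01 ± 0.11. Of the kinase and ubiquitin ligase genes that set clock protein turnover, Csnk1d, Csnk1e, Btrc and Gsk3b did not pass, and Gsk3b differed by -0.25 ± 0.12 (adjusted p = 0.257).

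**Figure D3:**
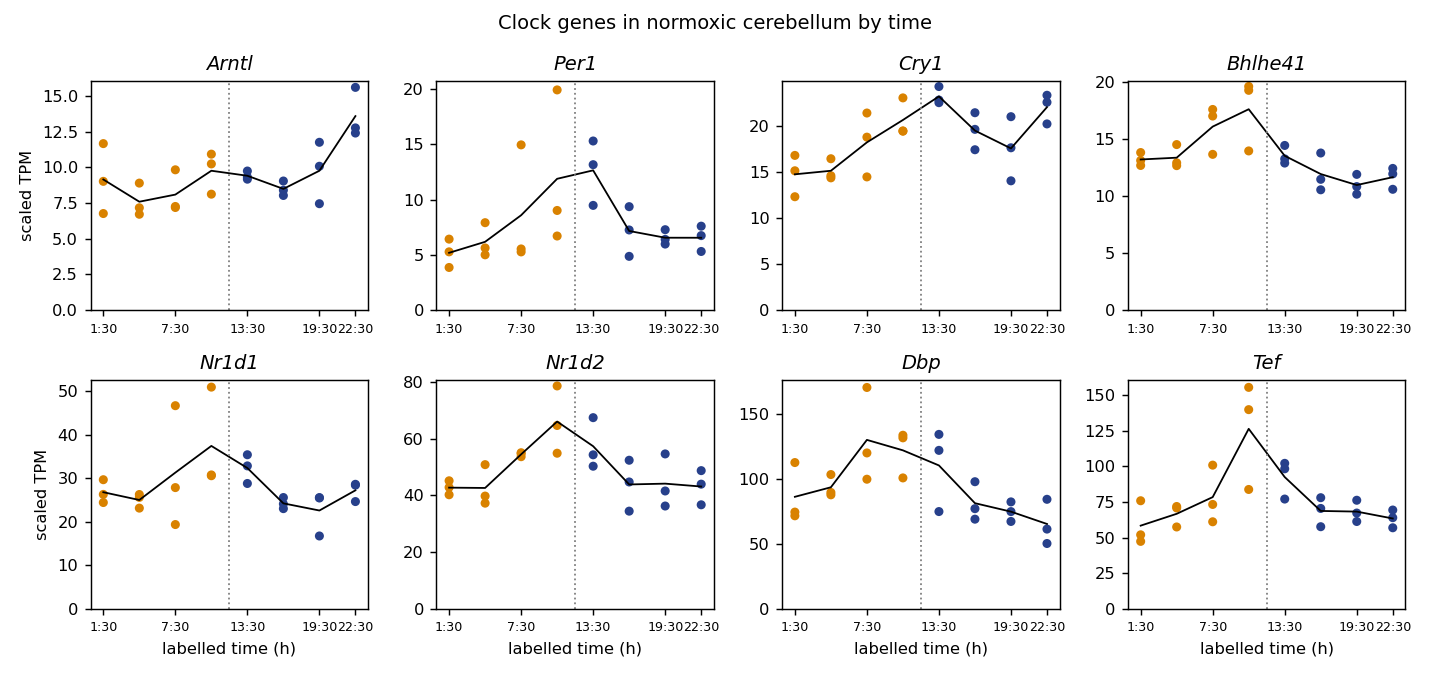
Scaled TPM against labelled time in hours for 8 clock genes, 1 point per library, orange for day and blue for night, with a line through the mean of each time point and a dotted line between day and night. Per1, Nr1d1, Nr1d2, Dbp and Tef are high from 7:30 to 13:30, on both sides of the dotted line, and Arntl is highest at 22:30.

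The time of the highest mean depended on the scaling. On the values as deposited, 20 of the 22 clock genes had their highest mean at 10:30, but so had 56.2% of all tested genes. After scaling, 10 of the 22 clock genes and 23.8% of all genes had their highest mean there. The size factors of the 10:30 libraries, from 1.09 to 1.40, compare with 0.767 to 0.900 at 4:30.

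A cosine of 24 hours was fitted because a gene that peaks near 12:00 has no day-night difference. No gene passed limma's F test at an adjusted p of 0.05 (smallest adjusted p = 0.0789), while 1797 genes, or 17.2%, reached an unadjusted p of 0.05. Of the 22 clock genes, 12 did, or 54.5%. Dbp had a log2 amplitude of 0.44 and an acrophase (fitted peak) of 9.38 h, Bhlhe41 0.27 and 8.62 h, and both had an adjusted p of 0.0906. Tef peaked at 11.5 h with an amplitude of 0.40, Nr1d2 at 10.8 h with 0.28 and Per1 at 12.3 h with 0.48. Arntl was fitted to 20.3 h with 0.18.

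Outside the clock list, Flii, an actin-remodelling protein, peaked at 21.4 h with a log2 amplitude of 0.41, and Plin2, which coats lipid droplets, at 2.77 h with 0.35, both at an adjusted p of 0.0789. Arih2 peaked at 10.3 h, Stk32a at 13.3 h, Zkscan5 at 4.23 h and Srr, which makes the neuromodulator D-serine, at 5.83 h. Zkscan5 and Srr were also called lower at night, by -1.27 ± 0.30 and -0.76 ± 0.16. The 4 highest values of Zkscan5, from 27.7 TPM up, and the 3 highest of Srr, from 21.0 TPM up, were in the libraries named above for Reep6. The part of their muscle list sums and numbers of genes was not tested. Without the libraries rich in pituitary or muscle transcripts, 11 genes passed the cosine test.

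Of 15 genes that follow the clock in many tissues, 1 rose and 1 fell (13.3% called, against 2.54% of all genes). Tfrc fell, as given above, and Cdkn1a rose, a call lost on the values as deposited and without the libraries rich in pituitary or muscle transcripts. Klf10, a Krüppel-like transcription factor, spread from 6.61 to 52.3 TPM by day and from 5.11 to 13.2 TPM by night, and its difference of -0.90 ± 0.32 did not pass (limma adjusted p = 0.114). In this list 8 of the 15 genes reached an unadjusted cosine p of 0.05, or 53.3% against 17.2% of all genes.

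The 24 cerebellum libraries of mice given IH were separate libraries from the other treatment arm. No gene passed the interaction of day or night with treatment in limma among 10385 tested (0%), with 280 at an unadjusted p of 0.05. In the IH libraries alone 0 of 10324 genes passed, with 1011 at an unadjusted p of 0.05. Some genes spread more widely by day than by night under IH. Gabra6 ran from 19.0 to 527 TPM by day and from 215 to 488 TPM by night. Huwe1 ran from 4.77 to 93.5 TPM by day and from 6.58 to 19.3 TPM by night. The part of this spread in the counts was not tested. Of the 265 genes called in normoxia 254 were tested in the IH libraries, and 247 of them, or 97.2%, had the same sign, against 72.2% of all 10059 genes tested in both. All 24 leading genes had the same sign in the fitted differences. Median TPM under IH went the other way for Letm1 (20.93 by day, 25.02 by night), Hsdl1 (20.29 and 22.09) and Pagr1a (78.54 and 70.96). The medians of the other leading genes kept the direction. The part of the wide day spread under IH in these shared signs was not tested. Whether a collection or sequencing batch was shared by the libraries of an hour was not given in the sources used here and was not tested.

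Among single genes, Manf was at 43.6, 122 and 189 TPM by day and at 143, 199 and 224 TPM by night under IH, a log2 difference of 0.53 ± 0.10 (limma adjusted p = 0.0730). Sdf2l1 differed by 0.62 ± 0.15 there and Cirbp by -0.55 ± 0.19. Gng5 was near equal under IH, at 0.11 ± 0.17, yet its difference between treatments of 0.75 ± 0.23 did not pass (limma adjusted p = 0.9998). Dbp differed by -0.54 ± 0.27 under IH.

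**Figure D4:**
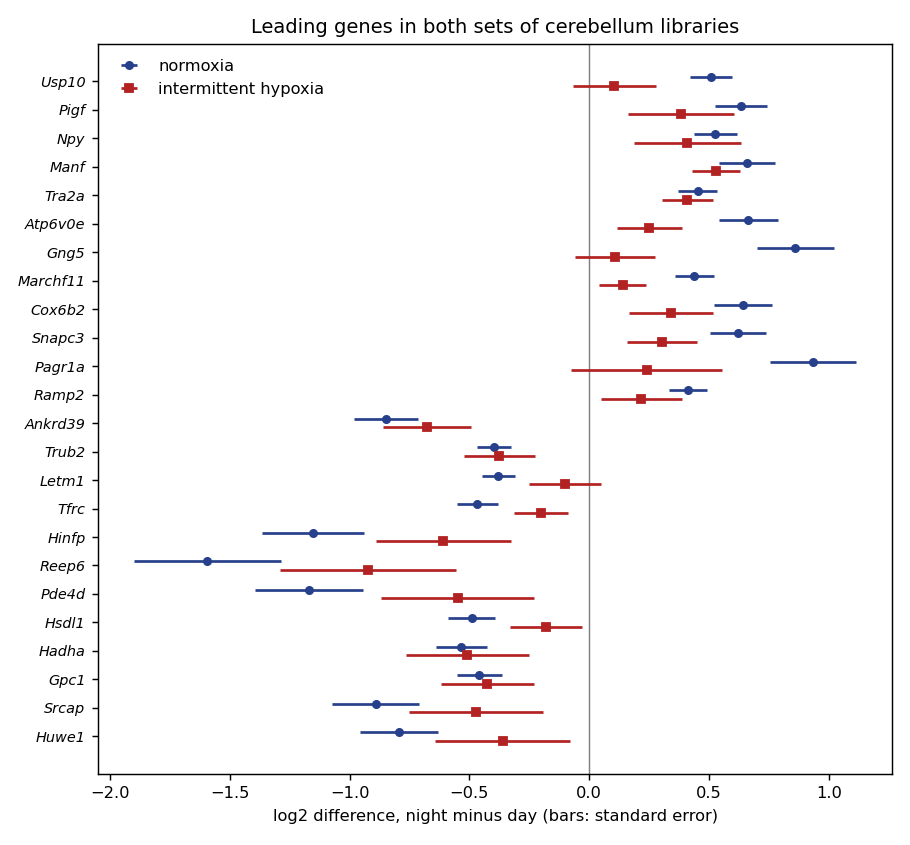
Log2 difference of night minus day (horizontal axis, bars are the standard error) of the 12 leading genes in each direction, in 24 normoxia libraries (blue circles) and in 24 IH libraries (red squares) of cerebellum. All 24 genes lie on the same side of 0 in both.

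The night-day difference was compared with that in 24 normoxia libraries each of liver, lung and kidney, and Nr1d1 passed the test of the difference against each. Tissues may have come from the same mice, and the libraries were taken as independent. The interaction of day or night with tissue passed for 231 of 6190 genes (3.73%) against liver, for 183 of 8646 (2.12%) against lung and for 170 of 7709 (2.21%) against kidney. These numbers fell to between 2 and 42 without replicate 1 or 2, and rose to between 509 and 729 without replicate 3.

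Nr1d1 differed between night and day by -2.95 ± 0.40 in liver, -2.05 ± 0.36 in lung and -2.50 ± 0.22 in kidney, and by -0.15 ± 0.13 in cerebellum. The cerebellum minus the other tissue was 2.81 ± 0.43, 1.90 ± 0.39 and 2.35 ± 0.27 (limma adjusted p = 6.49e-05, 0.0138 and 6.16e-08). Cry1 differed by 1.55 ± 0.21 in liver and 1.71 ± 0.16 in kidney against 0.26 ± 0.10, and passed both interactions but not that with lung (adjusted p = 0.173). Dbp differed by -1.99 ± 0.47 in kidney and -2.04 ± 0.43 in lung, and passed against lung alone (adjusted p = 0.0442, and 0.0759 against kidney). Nfil3 passed against kidney, where it differed by 1.63 ± 0.21. Most clock genes tested did not pass: 3 of 17 passed against liver, 3 of 22 against lung and 4 of 18 against kidney.

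**Figure D5:**
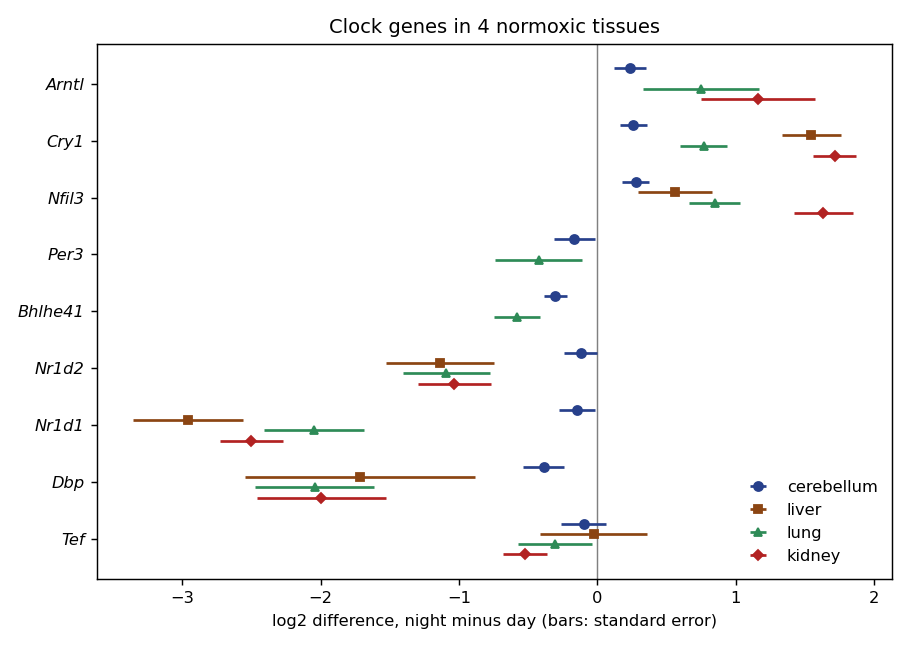
Log2 difference of night minus day (horizontal axis, bars are the standard error) of 9 clock genes in 24 normoxia libraries each of cerebellum, liver, lung and kidney, drawn where the gene had a mean of at least 5 TPM in both tissues compared. Cerebellum points lie between -0.39 and 0.28, while Nr1d1 reaches -2.95 in liver and Cry1 reaches 1.71 in kidney.

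Sdf2l1, Manf and Cirbp had the same sign in the other tissues as in the cerebellum. Sdf2l1 differed by 0.68 ± 0.16 in liver, 0.39 ± 0.10 in lung and 1.37 ± 0.18 in kidney, and Manf by 0.37 ± 0.20, 0.17 ± 0.08 and 0.77 ± 0.16. Cirbp differed by -0.60 ± 0.13, -0.49 ± 0.16 and -0.65 ± 0.14, and its interaction p-values missed the threshold in all 3 comparisons (limma adjusted p = 0.989, 0.854 and 0.935). Manf passed its interaction against lung, by 0.49 ± 0.14.

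Among other genes, Tfrc was higher at night in liver, by 0.63 ± 0.18, and its difference in the cerebellum was lower than in liver by -1.09 ± 0.20. Mt2 differed by -0.80 ± 0.12 in kidney against 0.82 ± 0.22 in cerebellum. Reep6 differed by -0.0029 ± 0.096 in kidney and Ankrd39 by 0.07 ± 0.08, and both passed the interaction. Of the 265 called genes, 205 were tested in kidney and 164 of them, or 80%, had the same sign, against 56.8% of all 7709 genes tested in both. The shares were 50.6% of 154 in liver, against 52.9% of all, and 44.8% of 230 in lung, against 52.1% of all.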

How the data were processed

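Cerebellum RNA was sequenced from poly(A)-selected directional libraries. Per the labels and the study's methods, the authors used bcl2fastq, FastQC 0.11.3 and kallisto with an Ensembl mouse reference (mm10 in the labels) and deposited TPM values per gene. TPM keeps no read depth, so the depth of each library is not known from the tables, although the study's methods describe deep sequencing over all samples, and no counting interval was given.

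Libraries were grouped by the labels. TPM was scaled by median-of-ratios size factors and taken as log2(value + 0.5), and genes averaging 5 TPM or more were kept. Differences are on that scale, which understates low genes. Tests were limma 3.58.1 in R 4.3.3 (intensity trend, 2-sided), Benjamini-Hochberg adjusted over all genes tested, and were tested on simulated data. A gene was called at an adjusted p of 0.05. Named genes were the clock genes tested, the 12 called genes with the smallest p in each direction, leaving out predicted and clone names, the next 6 by cosine p, and 2 to 4 per list. Members and lists were chosen with earlier results of these data known, and the skeletal muscle and pituitary lists after the data were seen. RefSeq promoters were searched by exact letters. Numbers of genes detected were compared by a permutation test with 100000 resamples (scipy 1.17.1). Alternatives changed the pseudocount, filter, scaling, weights, covariates and libraries. Supplementary results of the study were not used here. Some genes of the lists are counted but not reported by name here.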

Additional observations from a re-analysis of the deposited data

Results flagged for a closer look

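These values differed between the cerebellum and another tissue by the interaction term of day or night with tissue in limma, and are the cerebellar night-day log2 difference minus that of the other tissue. Against liver, 231 genes passed, against lung 183 and against kidney 170.

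Among clock genes, the values for Nr1d1 were 2.81 against liver, 1.90 against lung and 2.35 against kidney. Cry1 was at -1.29 against liver and -1.45 against kidney. Dbp was at 1.65 against lung and Nfil3 at -1.36 against kidney.

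Among other named genes, Gng5 was at 0.80 against liver, 0.79 against lung and 0.71 against kidney, Tfrc at -1.09, -0.66 and -0.63, and Reep6 at -1.745, -1.70 and -1.59. Ankrd39 was at -0.89 against lung and -0.91 against kidney, Mt2 at 1.16 and 1.62, and Manf at 0.49 against lung.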

How the results depend on the processing

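The number of night-day calls, 265, was 443 with a mean of at least 1 TPM, 101 with no filter, 1815 with array weights and 96 with genes detected as a covariate. Leaving out a replicate number or a time point gave 0 to 1272 calls. Of alternatives chosen after seeing the data, leaving out 16:30 replicate 3 and 19:30 replicate 3 gave 410, leaving out 7:30 replicates 1 and 2 gave 70, and granule cell markers as a term gave 637. For the cosine, 0 calls became 16 on TPM as deposited, 236 with array weights, 11 without 16:30 replicate 3 and 19:30 replicate 3, 4 with the granule term, and stayed at 0 without each replicate number. The interaction with treatment gave 0 to 5 calls without a replicate number. That with liver gave 86 calls on TPM as deposited and 6 to 524 without a replicate number, that with lung 111 and 2 to 509, and that with kidney 273 and 6 to 729. The count of genes above 0 TPM was lower at night by -561.8 (permutation p = 0.224), and that of genes of at least 1 TPM by -1277 (permutation p = 0.0015). With a replicate block, 732 genes were called between night and day, the 265 among them, and 71 by cosine, with Bhlhe41, Dbp and Tef among the clock genes. The main fits had no term for replicate number. Correlations of same-numbered libraries' deviations ran from -0.33 to 0.68 for number 1, with a median of 0.23. For number 2 they ran from -0.28 to 0.63 (median 0.07), and for number 3 from -0.30 to 0.835 (median 0.36). Of 28 pairs per number, 18, 12 and 20 lay above 0.1. Among libraries of other time points, 18 of 24 libraries were closest to one of their own number. What libraries of a number share was not tested. Over 621 values of the 27 called named genes, 0 changed sign and 139 missed the threshold. Over 575 values of the 25 others, 34 changed sign and 19 passed. The cause of these shifts was not tested. The 27 genes were called on mostly the same libraries, so their kept signs do not measure stability. The depth of each library is not known from TPM, so no limit per library was set from it.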
